A study of Mus musculus with 6 samples.

Results

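Integrins and the proteins of focal adhesions were examined in the mouse mammary carcinoma line 4T-1 as 33 genes taken by symbol from the 55487 genes of the deposited count table. They comprise 12 integrin subunits, here called receptors, and 21 cytoplasmic components. The groups were Lyplal1 knockout cells (n = 3) and wild-type cells (n = 3), and no treatment or other genetic change is named for either. Library names carry sg2 for the knockout and NC for the wild type, terms that the titles do not spell out. The labels do not say whether the knockout cells were a clone or a pool, nor whether the libraries of a group came from separate cultures, so p-values measure only the spread between these libraries, which may be technical. Lyplal1 encodes a lysophospholipase-like protein related to the enzymes that remove palmitate from proteins.

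Integrins are paired α and β subunits that span the membrane and bind laminins, collagens, fibronectin and other matrix proteins. Talins and kindlins bind the tail of the β subunit and switch the receptor on, and the complex of ILK, PINCH and parvin, with vinculin, α-actinin, filamin and tensin, ties it to actin. Focal adhesion kinase, SRC, BCAR1, CRK and paxillin carry the signal onward, and in carcinoma cells these sites serve spreading, migration and survival.

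Total counts were 16731209, 16770387 and 16784906 in knockout libraries and 17108975, 17048072 and 17007616 in wild-type libraries, and 13022 genes passed the filter on low counts. The targeted gene Lyplal1 had 54, 48 and 58 counts in knockout libraries and 76, 73 and 68 in wild-type libraries. The fall of 0.28 ± 0.15 (log2, SE) was not called by edgeR's quasi-likelihood test (adjusted p = 0.0886). Upper-quartile factors gave a called change of -0.41 (edgeR, adjusted p = 0.014). On log2(TPM + 1), from the deposited levels scaled to gene length, limma called a change of -0.44 (adjusted p = 7.97e-04). Under these 2 settings the median log2 change of all genes was itself -0.13 and -0.19. Counts over a whole gene need not fall after an edit, so this does not check the labels firmly. Mammary epithelial markers such as Krt8, Krt18 and Cdh1 were abundant in all 6 libraries, with summed levels of 3074 to 3076 CPM, the counts scaled to library size, in knockout libraries and 3912 to 4024 CPM in wild-type libraries. They did not move alike. Krt7 had 21511 to 21676 counts in knockout libraries and 13961 to 14691 in wild-type libraries. Krt18 had 7606 to 7883 and 22846 to 23858, and Krt8, Krt19, Epcam and Cdh1 were also lower in knockout libraries. Krt14 had 24 to 32 counts and Krt5 at most 1 in any library. Lung epithelial markers summed to 39.0, 45.2 and 156.0 CPM in knockout libraries and 1.01 to 1.41 CPM in wild-type libraries, and knockout replicate 3 stood apart with 1085 counts of Scgb1a1 and 691 of Sftpc. The fibroblast list summed to 171.3 to 180.2 CPM in knockout libraries and 67.3 to 70.0 CPM in wild-type libraries, mostly Pdgfra. Endothelial, muscle and platelet markers reached at most 8.05, 13.8 and 4.84 CPM in knockout libraries, all in replicate 3, and 0.224, 0.506 and 7.98 CPM in wild-type libraries. In bulk samples, fewer cells of a type and less RNA per cell cannot be told apart, and the part of these markers in the results was not tested. Without knockout replicate 3 the calls of the members stayed at 8 higher and 20 lower.

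Most of the adhesion genes were lower in knockout cells, with a lower median among the receptors than among the cytoplasmic components. Of the 33 genes, 31 passed the filter, and edgeR called 28 of them (90.3%), against 82.3% of all 13022 tested genes, so the number called stood near the background of this wide comparison. The directions were uneven: 8 members (25.8%) were higher and 20 (64.5%) were lower, against 41.3% higher and 40.9% lower among all tested genes. On log2(TPM + 1), where TPM is the deposited level scaled to gene length, the split was 5 higher and 22 lower among members and 4125 higher and 6598 lower among all genes, and the median log2 change of all genes was itself -0.19 there, against -0.63 for the members. The groups did not overlap in 28 tested members, against 83.1% of all tested genes.

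Differences beyond 1.5-fold ran one way. By edgeR's test against that fold (glmTreat), 11 members (35.5%) were lower and 0 were higher, against 39.9% of all tested genes past that fold, 20.7% lower and 19.2% higher. The 11 were Itga2, Itga3, Itgb3, Itgb4, Ilk, Fermt1, Fermt2, Tns3, Actn1, Vasp and Bcar1. The median log2 fold change, knockout over wild type, was -0.43 over the 31 tested members and -0.00 over all tested genes. It was -0.54 over 10 tested receptors, of which 1 was higher, 8 lower and 1 not called, and -0.17 over 21 cytoplasmic components, of which 7 were higher, 12 lower and 2 not called. The members were also more abundant than most genes, with a median of 168.4 CPM against 31.8 CPM over all tested genes.

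**Figure D1:**
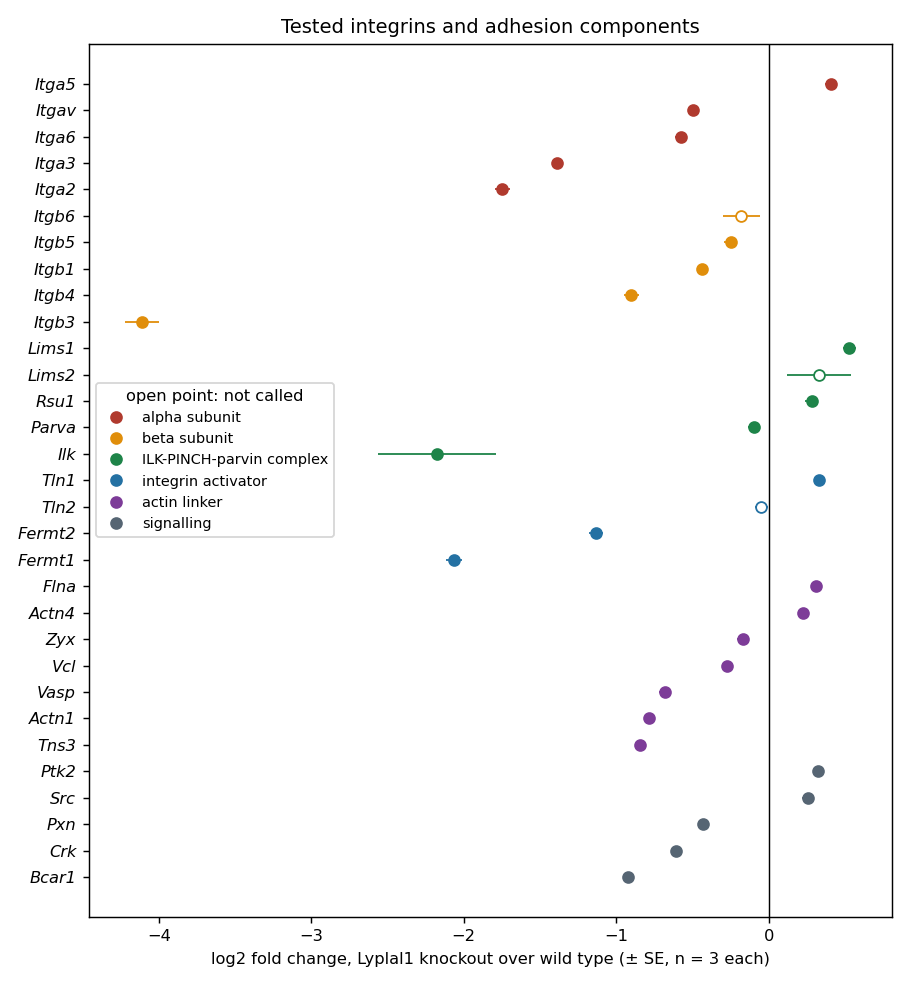
Log2 fold change, knockout over wild type, of the tested adhesion genes by role, as fitted by edgeR with bars of 1 SE (n = 3 libraries per group). The 20 genes called lower span Itgb3 at -4.11 to Parva at -0.10, and the 8 called higher lie between Actn4 at 0.23 and Lims1 at 0.53.

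The α subunit Itga3, which pairs with Itgb1 as a laminin receptor, was the most abundant α subunit by length in both groups. Itga3 (ENSMUSG00000001507, chromosome 11, 95044474 to 95076801, GRCm38) had 1035, 981 and 1023 CPM in knockout libraries and 2657, 2641 and 2672 CPM in wild-type libraries. Its level per length was 654 ± 17.9 TPM in knockout cells and 1982 ± 6.36 TPM in wild-type cells (SD, n = 3 each), a change of -1.39 ± 0.03 (log2, SE; edgeR adjusted p = 4.95e-24), which is 2.62-fold lower. The collagen receptor subunit Itga2 (ENSMUSG00000015533, chromosome 13, 114833081 to 114932100) had 74.9, 74.3 and 64.0 CPM in knockout libraries and 236, 244 and 235 CPM in wild-type libraries. It was 3.35-fold lower (log2 change -1.75 ± 0.05 SE, edgeR adjusted p = 3.71e-21). In both genes every knockout library lay far below every wild-type library.

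Itga6, which joins Itgb1 or Itgb4 to bind laminin, and Itgav, which binds matrix proteins with an RGD motif, were moderately lower. Itga6 had 213, 220 and 198 CPM in knockout libraries and 317, 309 and 315 CPM in wild-type libraries, a change of -0.58 ± 0.04 (log2, SE; edgeR adjusted p = 6.42e-14). Itgav had 263, 257 and 242 CPM in knockout libraries and 363, 368 and 344 CPM in wild-type libraries, a change of -0.49 ± 0.04 (edgeR adjusted p = 1.49e-12). Itga5, the α subunit of the classical fibronectin receptor, was the 1 receptor called higher. Itga5 (ENSMUSG00000000555, chromosome 15, 103344286 to 103366763) had 157, 153 and 159 CPM in knockout libraries and 117, 117 and 119 CPM in wild-type libraries, a 1.33-fold rise (log2 change 0.41 ± 0.04 SE, edgeR adjusted p = 7.88e-11).

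Itga9, whose product binds tenascin and osteopontin, did not pass the filter. It had 2, 1 and 11 counts in knockout libraries and none in wild-type libraries, and against a floor of 3 counts over the wild-type group it was at least 5.22-fold higher. That bound rests on knockout replicate 3, the library with the most lung marker counts. Without it the knockout total was 3 counts, at the floor.

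The make-up of the α subunits differed as well as their sum. The 6 listed α subunits summed to 980 ± 27.2 TPM in knockout cells and 2514 ± 9.77 TPM in wild-type cells (SD, n = 3 each), 0.39 times the wild-type sum. Itga3 made up 66.8% ± 0.962 of that sum in knockout cells and 78.8% ± 0.255 in wild-type cells, while Itga5 made up 11.9% ± 0.227 in knockout cells and 4.04% ± 0.0398 in wild-type cells. Itga5 therefore stood second among the α subunits by length in knockout cells, at 117 ± 1.4 TPM, ahead of Itgav (87.3 ± 5.13 TPM) and Itga6 (84.9 ± 5.84 TPM), which did not differ beyond their spread, and Itga2 (36.8 ± 3.77 TPM). In wild-type cells Itga6 (146 ± 1.93 TPM), Itga2 (142 ± 3.16 TPM) and Itgav (142 ± 5.71 TPM) lay within their spread of each other, above Itga5 (101 ± 0.651 TPM). The exact two-sided permutation test over the 6 libraries gave p = 0.1 for each of these shares, the smallest that 3 against 3 allows, and 0.118 after adjustment over 26 tests, of the shares and of each family's summed TPM.

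**Figure D2:**
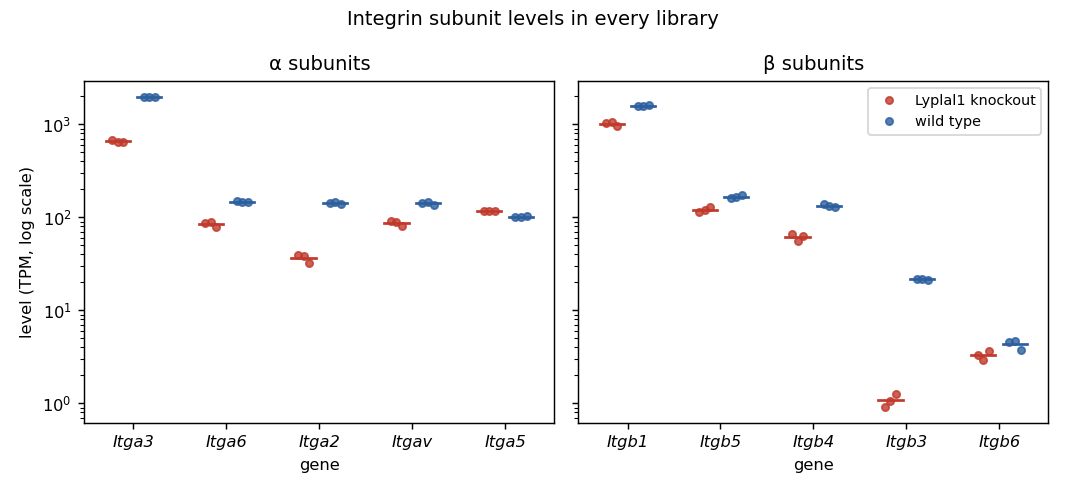
Level of each tested integrin subunit among the members, in TPM on a log axis. Each library is 1 point, knockout lies left of wild type, and the mean is a line. Itga3 and Itgb1 are the highest α and β subunits in both groups, and Itgb3 shows the widest gap, at 1.08 TPM in knockout cells and 21.7 TPM in wild-type cells.

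Among the β subunits, Itgb3 fell furthest of all members. Itgb3, which pairs with Itgav as a vitronectin receptor, had 23, 27 and 33 counts in knockout libraries and 539, 540 and 528 counts in wild-type libraries. Per length this was 1.08 ± 0.183 TPM in knockout cells and 21.7 ± 0.324 TPM in wild-type cells (SD, n = 3 each). The gene (ENSMUSG00000020689, chromosome 11, 104608000 to 104670476) was 17.3-fold lower, a log2 change of -4.11 ± 0.11 (SE; edgeR adjusted p = 4.72e-22), and -3.45 on log2(TPM + 1), a scale that understates low genes.

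Itgb4, the hemidesmosome subunit that pairs with Itga6, had 124, 105 and 123 CPM in knockout libraries and 226, 216 and 216 CPM in wild-type libraries, 1.87-fold lower (edgeR adjusted p = 8.69e-13). Itgb1, the common partner of most α subunits, had 1128, 1148 and 1096 CPM in knockout libraries and 1497, 1519 and 1554 CPM in wild-type libraries, 1.36-fold lower (edgeR adjusted p = 4.60e-13). Itgb5, another partner of Itgav, had 110, 114 and 126 CPM in knockout libraries and 135, 138 and 144 CPM in wild-type libraries, 1.19-fold lower (edgeR adjusted p = 1.5e-05). All 4 called β subunits had every knockout library below every wild-type library, in a comparison where the groups did not overlap in 83.1% of all tested genes.

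The remaining partners of Itgav, both known for releasing TGF-β from its latent form, gave no call. Itgb6 had 6.38, 5.56 and 7.17 CPM in knockout libraries and 7.53, 7.85 and 6.24 CPM in wild-type libraries, groups that overlapped (log2 change -0.18 ± 0.12 SE, edgeR adjusted p = 0.18), though limma called it lower on log2(TPM + 1) (adjusted p = 0.0362). Itgb8 had 2 counts in all knockout libraries together and 1 in all wild-type libraries, too few to compare.

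The 6 listed β subunits summed to 1204 ± 31.9 TPM in knockout cells and 1916 ± 23.2 TPM in wild-type cells, 0.628 times the wild-type sum. That was a smaller drop than that of the listed α subunits. Itgb1 held 84.4% ± 1.14 of the sum in knockout cells and 83.0% ± 0.188 in wild-type cells, so the dominant β subunit kept nearly the same share. Itgb3 made up 0.0901% in knockout cells and 1.13% in wild-type cells. Among these listed subunits, levels per length ran Itgb1, Itgb5, Itgb4, Itgb6 and Itgb3 in knockout cells. Itgb5 averaged 121 ± 6.51 TPM there and Itgb4 61.8 ± 5.14 TPM. In wild-type cells the order was Itgb1, Itgb5, Itgb4, Itgb3 and Itgb6. Itgb5 averaged 167 ± 5.18 TPM there, Itgb4 133 ± 4.09 TPM and Itgb6 4.32 ± 0.531 TPM. Itgb7 and Itgb2, outside the 6, averaged 51.4 and 7.51 TPM in knockout cells, above Itgb6 and Itgb3, and 1.66 and 15.2 TPM in wild-type cells.

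**Figure D3:**
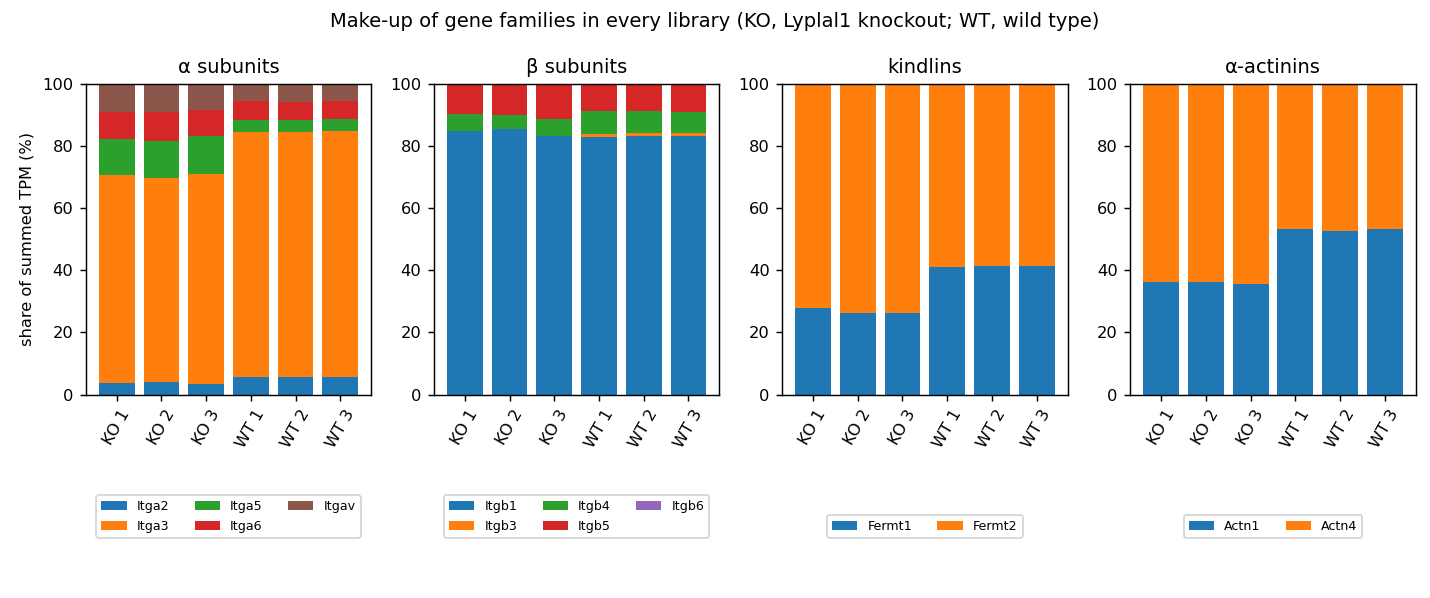
Share of each gene in the summed TPM of its family, in percent, stacked for each library, for the listed α subunits, β subunits, kindlins and α-actinins. Itga9 and Itgb8, too scarce to show, are not drawn. On average, Itga5 holds 11.9% of the α sum in knockout cells, against 4.04% in wild-type cells. Actn1 averages 36.0% of the α-actinin sum in knockout cells and 53.0% in wild-type cells.

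The integrin activators split, with both kindlins lower and the main talin slightly higher. Fermt1 (kindlin-1, the epithelial kindlin; ENSMUSG00000027356, chromosome 2, 132904389 to 132945906) had 28.4, 28.5 and 24.6 CPM in knockout libraries and 113, 114 and 113 CPM in wild-type libraries, 4.18-fold lower (log2 change -2.06 ± 0.05 SE, edgeR adjusted p = 8.74e-23). Fermt2 (kindlin-2; ENSMUSG00000037712, chromosome 14, 45458795 to 45530118) had 66.6, 72.6 and 62.7 CPM in knockout libraries and 149, 147 and 146 CPM in wild-type libraries, 2.19-fold lower (log2 change -1.13 ± 0.05 SE, edgeR adjusted p = 2.5e-18). The kindlin sum was 65.4 ± 5.79 TPM in knockout cells and 206 ± 2.15 TPM in wild-type cells, and Fermt1 made up 26.9% ± 0.948 of it in knockout cells and 41.2% ± 0.297 in wild-type cells (exact permutation p = 0.1). Tln1, the talin of most cell types, averaged 370 ± 1.2 TPM in knockout cells and 340 ± 7.45 TPM in wild-type cells, with a log2 change of 0.33 ± 0.03 (SE; edgeR adjusted p = 9.91e-11). Tln2 had 99.3 to 106 CPM in knockout libraries and 105 to 108 CPM in wild-type libraries and was not called (log2 change -0.05 ± 0.04 SE, edgeR adjusted p = 0.281), though limma called it lower on log2(TPM + 1) (adjusted p = 0.00207).

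RefSeq start-site windows of GRCm38.p6, from 250 bases before to 50 after each annotated start, were at hand for 25 of the 33 genes, as 31 windows. Those of Fermt1, Fermt2, Itga2 and Itga5 are printed 5′ to 3′ on the minus strand, with motif matches in capitals. Fermt1 and Fermt2 fell together. Among the 33 genes, Itga2 was the α subunit with the steepest fall and Itga5 the 1 receptor called higher. The regions are chr2:132945987-132946286 for Fermt1, chr14:45530016-45530315 for Fermt2, chr13:114932051-114932350 for Itga2 and chr15:103366742-103367041 for Itga5.
Fermt1: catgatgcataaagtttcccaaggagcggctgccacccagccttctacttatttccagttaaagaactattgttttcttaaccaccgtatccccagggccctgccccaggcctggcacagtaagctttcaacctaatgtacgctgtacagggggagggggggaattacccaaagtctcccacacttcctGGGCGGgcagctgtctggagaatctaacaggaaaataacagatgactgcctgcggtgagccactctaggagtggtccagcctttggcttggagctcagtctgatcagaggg
Fermt2: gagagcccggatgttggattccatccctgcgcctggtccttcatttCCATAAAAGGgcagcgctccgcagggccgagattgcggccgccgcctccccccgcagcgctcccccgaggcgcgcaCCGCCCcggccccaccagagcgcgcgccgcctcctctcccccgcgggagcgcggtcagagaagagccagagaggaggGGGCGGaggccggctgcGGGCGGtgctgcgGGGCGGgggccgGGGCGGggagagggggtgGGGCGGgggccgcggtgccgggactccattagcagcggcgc
Itga2: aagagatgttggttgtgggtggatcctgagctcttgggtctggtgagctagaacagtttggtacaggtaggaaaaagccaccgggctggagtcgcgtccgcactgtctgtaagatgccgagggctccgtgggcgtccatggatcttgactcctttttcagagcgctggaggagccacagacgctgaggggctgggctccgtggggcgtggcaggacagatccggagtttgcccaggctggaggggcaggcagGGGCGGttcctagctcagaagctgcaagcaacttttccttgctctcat
Itga5: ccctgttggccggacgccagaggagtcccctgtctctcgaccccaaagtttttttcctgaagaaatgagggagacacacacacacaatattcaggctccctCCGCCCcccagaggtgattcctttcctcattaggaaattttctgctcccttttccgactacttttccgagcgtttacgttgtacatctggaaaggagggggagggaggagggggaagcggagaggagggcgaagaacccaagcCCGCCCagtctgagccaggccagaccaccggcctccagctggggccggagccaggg
Each window was searched on both strands for the AP-1 site TGANTCA, the TEAD site GGAATG, the GC box GGGCGG and the CArG box, the element bound by serum response factor. The capitals in the Fermt1 and Itga2 windows mark 1 GC box each, at -61 to -56 and at 2 to 7 relative to the start, and those in the Itga5 window mark 2 on the opposite strand. The Fermt2 window holds 6 GC boxes and a CArG box at -204 to -195. Over the members' windows a GC box was present in 22 of 31 (71.0%), against 35.7% of all 32851 windows. A CArG box was present in 4 (12.9%), those of Fermt2, Itgb6, Rsu1 and Vcl, against 1.63% of all windows. AP-1 and TEAD letters were in 4 windows each (12.9%), against 7.81% and 14.7% of all windows. The 4 genes with a CArG box did not move alike: Fermt2 and Vcl were lower, Rsu1 was higher and Itgb6 was not called.

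In the complex of ILK, PINCH and parvin, PINCH-1 was higher. Lims1, which encodes it, had 201, 217 and 195 CPM in knockout libraries and 150, 137 and 137 CPM in wild-type libraries, a 1.44-fold rise (log2 change 0.53 ± 0.04 SE, edgeR adjusted p = 4.03e-11). Rsu1, a partner of PINCH-1, had 72.7, 72.1 and 72.5 CPM in knockout libraries and 61.0, 59.9 and 57.8 CPM in wild-type libraries (log2 change 0.28 ± 0.04 SE, edgeR adjusted p = 2.12e-06), though it was not called on log2(TPM + 1) by limma (adjusted p = 0.184). Parva, α-parvin, had 131 to 133 CPM in knockout libraries and 138 to 146 CPM in wild-type libraries, a small fall of 0.10 on the log2 scale (edgeR adjusted p = 0.0165) that was not called without wild-type replicate 2 (adjusted p = 0.0887). Lims2, PINCH-2, had 2.06 to 2.58 CPM in knockout libraries and 1.40 to 2.08 CPM in wild-type libraries and was not called (edgeR adjusted p = 0.151).

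The value of Ilk, the pseudokinase at the core of that complex, is uncertain. It had 4, 5 and 3 counts in knockout libraries and 21, 26 and 15 counts in wild-type libraries, 4.52-fold lower (log2 change -2.18 ± 0.39 SE, edgeR adjusted p = 1.35e-05). Of its 2744 exonic bases, 89.7% also belong to Rrp8 or Taf10 on the opposite strand, and the strand setting of the counting is not given in the sources used here, so reads of the 3 genes may not have been told apart. Taf10 had 1570 to 1757 counts in knockout libraries and 861 to 910 counts in wild-type libraries.

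Among the genes that join adhesions to actin, the directions were mixed. Actn1, the α-actinin that crosslinks actin at adhesions, had 362, 356 and 350 CPM in knockout libraries and 610, 607 and 621 CPM in wild-type libraries, 1.72-fold lower (log2 change -0.78 ± 0.03 SE, edgeR adjusted p = 2.13e-18). Its paralog Actn4 had 709, 699 and 701 CPM in knockout libraries and 593, 608 and 600 CPM in wild-type libraries, a log2 change of 0.23 ± 0.03 (SE; edgeR adjusted p = 1.19e-07). That rise depends on the scale, since Actn4 averaged 423 ± 8.74 TPM in knockout cells and 418 ± 5.65 TPM in wild-type cells, which limma did not call (adjusted p = 0.560). Actn1 fell to 36.0% ± 0.278 of the α-actinin sum in knockout cells, against 53.0% ± 0.474 in wild-type cells (exact permutation p = 0.1), a shift that does not depend on scaling between libraries.

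Tns3, tensin 3, which binds β tails and actin in mature adhesions, had 189, 185 and 181 CPM in knockout libraries and 333, 328 and 334 CPM in wild-type libraries, 1.79-fold lower (edgeR adjusted p = 1.93e-18). Vasp, which promotes actin filament growth, had 124, 119 and 127 CPM in knockout libraries and 200, 193 and 200 CPM in wild-type libraries, 1.6-fold lower (edgeR adjusted p = 1.89e-15). Vinculin and zyxin, which gather where adhesions bear tension, showed smaller falls. Vcl had 129 to 138 CPM in knockout libraries and 162 to 163 CPM in wild-type libraries, 1.21-fold lower (edgeR adjusted p = 2.18e-07), with 25.5% of its exonic bases shared with Ap3m1 on the opposite strand. Zyx had 307 to 345 CPM in knockout libraries and 358 to 371 CPM in wild-type libraries, a log2 change of -0.17 ± 0.04 (SE; edgeR adjusted p = 1.98e-04). Flna, filamin A, was the most abundant cytoplasmic component, at 1028 ± 19.6 TPM in knockout cells and 956 ± 4.41 TPM in wild-type cells, and was 1.24-fold higher (log2 change 0.31 ± 0.03 SE, edgeR adjusted p = 1.48e-10).

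The listed signalling components went in both directions. Both kinases were modestly higher: Ptk2, focal adhesion kinase, had 391, 398 and 388 CPM in knockout libraries and 308, 312 and 319 CPM in wild-type libraries (1.25-fold, edgeR adjusted p = 4.41e-10). Src had 138, 132 and 136 CPM in knockout libraries and 115, 111 and 115 CPM in wild-type libraries (1.19-fold, edgeR adjusted p = 7.92e-07), though it was not called on log2(TPM + 1) by limma (adjusted p = 0.219). The scaffolds and the adaptor they recruit were lower. Bcar1, a substrate of both kinases, had 169, 163 and 167 CPM in knockout libraries and 309, 320 and 315 CPM in wild-type libraries, 1.89-fold lower (log2 change -0.92 ± 0.03 SE, edgeR adjusted p = 3.75e-19). Crk, the adaptor that binds phosphorylated BCAR1 and paxillin, had 169, 175 and 171 CPM in knockout libraries and 261, 263 and 261 CPM in wild-type libraries, 1.53-fold lower (edgeR adjusted p = 2.92e-15). Pxn, paxillin, had 336, 333 and 349 CPM in knockout libraries and 464, 450 and 458 CPM in wild-type libraries, 1.35-fold lower (edgeR adjusted p = 1.9e-12). Related genes outside the members did not keep to a split of kinases from scaffolds. The kinases Ptk2b and Yes1 were lower (log2 change -0.79 and -0.15) and Fyn was higher (0.72). Crkl, the paralog of Crk, was higher (0.64), and Nedd9, the paralog of Bcar1, was lower (-1.67).

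Ligands of integrins, nearly all of the matrix, were mostly lower in knockout cells. Of 34 listed, 26 were tested, 20 were lower, 4 were higher and 2 were not called, with a median log2 change of -0.89. The list also holds the cell-surface ligands Vcam1, which was lower, and Icam1, which was not called. Among all tested genes 82.3% were called, 40.9% lower and 41.3% higher, so the number called stood near the background. Tnc, tenascin C, had 37, 33 and 39 counts in knockout libraries and 766, 842 and 772 counts in wild-type libraries, 19.5-fold lower (edgeR adjusted p = 1.14e-23). Ccn2, a matricellular protein, had 285, 292 and 342 counts in knockout libraries and 2716, 2592 and 2789 counts in wild-type libraries, 7.88-fold lower (edgeR adjusted p = 3.36e-25). The collagen VI chains Col6a1, 6.79-fold lower, and Col6a2, with 4, 5 and 8 counts in knockout libraries and 118, 107 and 80 counts in wild-type libraries, fell together.

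Of 14 other integrin subunits, 7 were tested, of which 6 were lower and 1 was higher, against 40.9% lower and 41.3% higher among all tested genes, with a median log2 change of -1.79. Itgb7, best known as a leukocyte β subunit, had 631, 631 and 586 counts in knockout libraries and 20, 15 and 23 counts in wild-type libraries, 35.4-fold higher (log2 change 5.14 ± 0.12 SE, edgeR adjusted p = 6.89e-24). Its α partners were scarce: Itga4 had 3 counts in all knockout libraries together and 2 in all wild-type libraries, and Itgae had 4 to 8 counts in knockout libraries and 12 to 17 counts in wild-type libraries. Leukocyte markers summed to 443.4 to 501.0 CPM in knockout libraries and 8.41 to 8.76 CPM in wild-type libraries. Nearly all of that was Cd68, a lysosomal protein, whereas Ptprc, the general leukocyte marker, had at most 4 counts in a knockout library and 7 in a wild-type library. Lyz2 had 28, 45 and 263 counts in knockout libraries and 1, 0 and 0 in wild-type libraries, and Tyrobp, Adgre1 and Csf1r had 16, 8 and 14 counts in knockout replicate 3 and at most 4 in any other library. Itga8, an RGD-binding partner of Itgb1, had 35, 29 and 33 counts in knockout libraries and 782, 836 and 828 counts in wild-type libraries, 22.5-fold lower (edgeR adjusted p = 3.68e-24). Itga1, a collagen receptor subunit, was 9.78-fold lower and Itga7, a laminin receptor subunit, was 4.91-fold lower (edgeR adjusted p = 6.22e-21 for Itga1 and 8.89e-20 for Itga7).

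**Figure D4:**
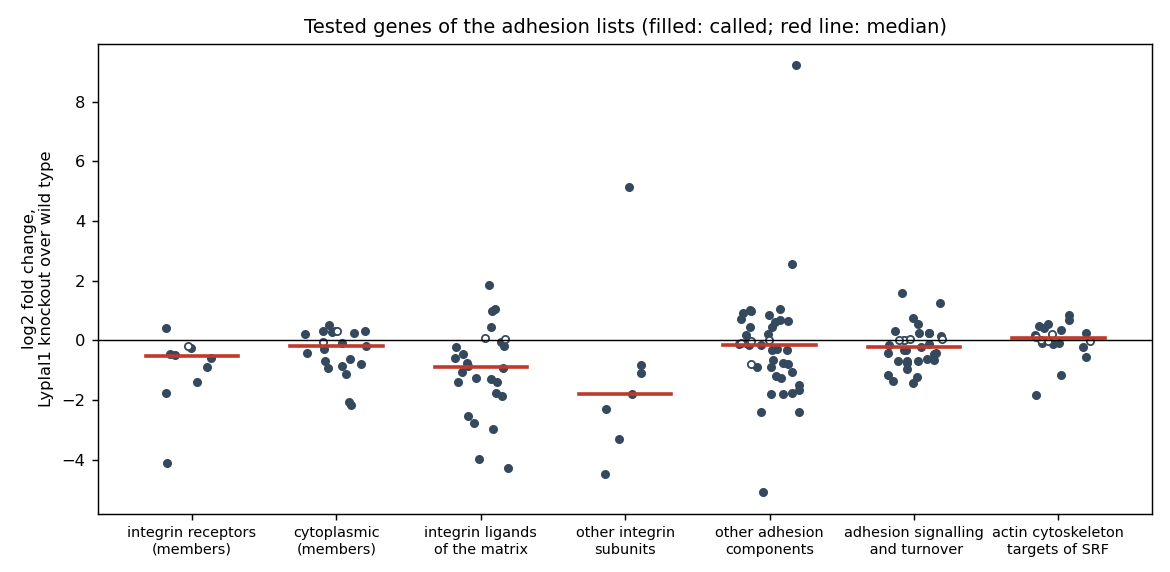
Log2 fold change, knockout over wild type, of every tested gene in the adhesion genes and in 5 lists of related genes, with 1 point per gene and the list median as a line. Integrin ligands, nearly all of the matrix, and other integrin subunits have medians of -0.89 and -1.79, while the list of actin targets of SRF lies around 0.07.

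Of 49 other adhesion components, 42 were tested, 15 were higher, 23 were lower and 4 were not called, against 82.3% called among all tested genes, 41.3% higher and 40.9% lower, with a median log2 change of -0.14. Parvb, β-parvin, the paralog of Parva, had 572, 627 and 608 counts in knockout libraries and 0, 0 and 3 counts in wild-type libraries, a ratio of 673 with an exact 95% interval from 230 to 3270 that covers counting error only (edgeR adjusted p = 2.02e-23). All wild-type counts of Parvb came from replicate 3. Cav1, caveolin-1, had 17, 9 and 67 counts in knockout libraries and 1192, 1186 and 1178 counts in wild-type libraries, with a log2 change of -5.09 ± 0.37 (SE; edgeR adjusted p = 1.57e-04). Without knockout replicate 3, the library with the most lung marker counts, the change was -6.33. Tns4, a tensin without the actin-binding part, had 851 to 956 counts in knockout libraries and 5248 to 5416 counts in wild-type libraries, and Kank3, of a family that binds talin, had 353 to 368 counts in knockout libraries and 2093 to 2194 counts in wild-type libraries. Both had a log2 change of -2.41.

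Signalling and turnover genes had more lower than higher calls, and actin targets had about as many of each. Of 34 signalling and turnover genes, 33 were tested, 9 were higher, 19 were lower and 5 were not called (median -0.24), against 82.3% called, 41.3% higher and 40.9% lower, among all tested genes. On log2(TPM + 1) the split was 5 higher and 24 lower, against 4125 higher and 6598 lower among all genes. Dab2, an adaptor in integrin endocytosis, was 3.04-fold higher and Elmo1, part of a Rac activator downstream of CRK, 2.36-fold higher, while Asap1 and Rasa1, GTPase-activating proteins, were 2.68-fold and 2.59-fold lower. The list of actin cytoskeleton targets of serum response factor (SRF) held 25 genes, among them Srf itself. It also held Mrtfa and Mrtfb, which are cofactors of SRF rather than actin genes. Of the list, 20 were tested, 8 were higher, 7 were lower and 5 were not called (median 0.07). Among all tested genes 82.3% were called, 41.3% higher and 40.9% lower, so calls were no more frequent in the list. On log2(TPM + 1) the split was 6 higher and 10 lower, against 4125 and 6598 among all genes. Srf itself had 2093, 2054 and 2304 counts in knockout libraries and 1497, 1492 and 1515 counts in wild-type libraries, 1.6-fold higher. Tagln2, a transgelin, was 1.82-fold higher, whereas Filip1l was 2.26-fold lower and Cnn3, a calponin, 1.47-fold lower.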

How the data were processed

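Per the labels' protocols, Trizol was used to extract total RNA, from which DNBseq quantification libraries were built. Build GRCm38, STAR 2.7.8a and featureCounts 2.0.1 are named without settings in the submitters' processing notes. No annotation release or strand setting is given in the sources used here. For each library the authors deposited raw counts and TPM of 55487 genes, and all 12 single-library files held the same values as the tables of the whole series. Symbols, positions and exon lengths come from GENCODE M21 (GRCm38), which held 55227 of the identifiers.

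Counts were tested with edgeR's quasi-likelihood F test (robust, TMM factors, filterByExpr, two-sided, Benjamini-Hochberg adjustment over 13022 genes, threshold 0.05). CPM use library sizes multiplied by TMM factors, and shares were computed from TPM. SEs of log2 changes derive from the F statistic. The members and the lists were chosen with earlier results of these data known, and lists are described by counts and medians only. Named were all members, Lyplal1 and, from each of 5 lists, the 4 called genes with the largest absolute log2 change among those whose higher group averaged 5 CPM or more and whose groups did not overlap. Other genes were named after their values were seen, among them Taf10, Rrp8, Ap3m1, Itga4, Itgae, Itgb2, Ptk2b, Yes1, Fyn, Crkl, Nedd9 and the markers. Some genes of the lists are not reported here by name. Folds against a group at 0 use a floor of 3 counts over the group. In simulated counts of these 13022 genes, 84% of 1.5-fold changes and 91% of 2-fold changes were recovered, and 9 unchanged genes were called. This does not test scaling when most genes change. Between libraries of one group, chi-square per gene was 1.45 to 3.74; none was a duplicate.

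Alternatives were upper-quartile and RLE factors, limma-voom, DESeq2, no filter, a filter of 1 CPM in 3 libraries, limma-trend on log2(TPM + a pseudocount of 1 or 0.1), glmTreat against 1.5-fold, the replicate number as a block, CPM in place of TPM for shares, and leaving out each library. Tools were Python 3.11.15, and DESeq2 1.42.0, limma 3.58.1 and edgeR 4.0.16 under R 4.3.3.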

Additional observations from a re-analysis of the deposited data

How the results depend on the processing

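Over the members and their alternatives, 464 values kept their direction and side of the threshold, 25 lost the call and 6 gained it, and none changed sign. Of the 25, 17 came from glmTreat, which asks for a change beyond 1.5-fold and is not another processing of the data. The scaling moved the centre: the median log2 change of all genes was -0.13 with upper-quartile factors, -0.19 on log2(TPM + 1) and -0.21 on log2(TPM + 0.1), and that of the members -0.56, -0.63 and -0.64 on the same scales. On TPM, with either pseudocount, the members had 5 higher calls, with Rsu1, Actn4 and Src not called on log2(TPM + 1), and the signalling genes also had 5. Tln2 and Itgb6 were called lower with upper-quartile factors and on log2(TPM + 1). Higher calls made up 50.2% of all calls as reported and 38.5% on log2(TPM + 1), 28.6% and 18.5% among members, 32.1% and 17.2% among signalling genes, and 53.3% and 37.5% among SRF targets, which had 41.2% with upper-quartile factors and 66.7% without a filter.

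Against 1.5-fold (glmTreat), 2503 genes were higher and 2690 lower over all genes, 0 and 11 among members, 3 and 9 among signalling genes and 2 and 2 among SRF targets, and 8 and 16 among other adhesion components. Without a filter, 13 other integrin subunits were tested, some of them with only a few counts, and 2 were higher and 7 lower. Over all 27543 genes of that setting 6037 were higher and 5993 lower.

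With CPM in place of TPM, the difference in share, knockout minus wild type, in percentage points was -2.30 for Itga2, 5.97 for Itga5, 3.83 for Itga6, 5.18 for Itgav, 2.86 for Itgb1, -1.44 for Itgb3, -2.83 for Itgb4, 0.0904 for Itgb6 and 2.51 for Tln1. The Itgb8 share rests on 3 counts in all and ran from -0.000377 to 0.00138 points when a library was left out.

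With the replicate number as a block, members had 8 higher and 20 lower calls and all genes 5430 and 5368. Deviations of same-numbered libraries were not correlated (-0.00742 to 0.0416). Such small deviations may be mostly counting noise, so this does not settle whether the numbers mark a shared day or batch. Depth limits Ilk, Itga9, Itgb8 and Lims2.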

Other observations

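A pair of genes known to restrain integrin activation, Itgb1bp1 and Sharpin, were picked out after their rise in knockout cells was seen, so they say nothing of such inhibitors as a group. Itgb1bp1, which competes for the β tail, averaged 38.0 ± 2.41 CPM in knockout cells and 18.8 ± 0.675 CPM in wild-type cells (SD, n = 3 each; edgeR adjusted p = 9.19e-14). Sharpin, which binds α tails, averaged 46.9 ± 1.63 CPM in knockout cells and 25.7 ± 1.78 CPM in wild-type cells (SD, n = 3 each; edgeR adjusted p = 4.3e-13).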
